A study of Mus musculus with 6 samples.

Results

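Interferon regulatory factors (IRFs) are transcription factors that share a DNA-binding domain with a cluster of tryptophans and recognise GAAA-type elements in the promoters of interferon genes, interferon-stimulated genes and many lymphocyte genes. IRF3 and IRF5 are latent proteins activated downstream of nucleic acid sensors and Toll-like receptors, IRF1 and IRF2 bind the same elements as an activator and mainly as a repressor, and IRF4 and IRF8 are lymphoid and myeloid factors that bind DNA largely with partners such as BATF-JUN dimers or PU.1. In T cells, Irf4 is induced through the antigen receptor and NF-κB and is required for expansion and effector differentiation, whereas IRF2BP2 is a corepressor that was first found through its binding to IRF2 and has no IRF DNA-binding domain.

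The members described here were 7 listed symbols, Irf1, Irf2, Irf3, Irf4, Irf5, Irf8 and Irf2bp2, and all 7 were found among the 35602 genes of the count table and among the 34714 genes of the single-library tables. Mouse splenic CD4+ T cells were stimulated through CD3 and CD28 and cultured with MAPK13-IN-1, an inhibitor of the p38-delta kinase encoded by Mapk13, or with DMSO, and RNA was sequenced after 72 h. The DMSO-treated group held 3 libraries, with 0.1 µl DMSO added at day 1 in replicates 2 and 3, and the MAPK13-inhibitor-treated group held 3 libraries, with 17.1 µM inhibitor added at day 1 in replicates 2 and 3. The series design places inhibitor or DMSO in the culture for the 72 h. For the replicate 1 pair the labels give no dose or day of addition. The labels give the genotype of replicates 2 and 3 as WT and name none for the replicate 1 pair, and no label says whether replicates came from separate animals or cultures, so p-values measure only the spread between these libraries, which may be technical.

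Replicates 2 and 3 were given as read counts, with totals of 26874805 and 28487403 in DMSO-treated cells and 33854760 and 32617702 in MAPK13-inhibitor-treated cells. Replicate 1 of each group was prepared with another library kit and was given in values taken here as FPKM (fragments scaled to transcript length and sequencing depth), since no label names their unit. It had 1 library per group, so its differences have no replicate check and no test. Counts are also given as CPM, counts scaled to a common library size after TMM normalization, and a log2 fold change is always MAPK13-IN-1 relative to DMSO, from the quasi-likelihood test of edgeR, with p adjusted by the Benjamini-Hochberg method over 16269 genes, in which a gene was called at an adjusted p under 0.05.

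The labelled cell type was checked against its defining markers. Cd3e, a subunit of the T-cell receptor complex, had 2714 and 2804 counts in DMSO-treated and 1240 and 1552 in MAPK13-inhibitor-treated cells, and Cd4 had 7084 and 7497 against 9477 and 9594. Cd8a was low, with 77 and 68 against 27 and 44 counts. Cd3e stood at 74.6 FPKM with DMSO and 70.2 with inhibitor in the replicate 1 pair. B-cell markers were present in the same count libraries, with the values given below for the whole list, so these libraries did not hold T-cell transcripts alone. The macrophage gene Lyz2 had 16 and 17 counts with DMSO and 195 and 112 with inhibitor. Mapk13 itself was scarce, with 79 and 74 counts against 21 and 51, and was lower with inhibitor (log2 fold change −1.47 ± 0.36 SE, edgeR adjusted p = 0.00490). This value was −0.94 without MAPK13-IN-1 replicate 2 and −2.29 without MAPK13-IN-1 replicate 3. Mapk13 was higher with inhibitor in the replicate 1 pair, at 3.28 against 0.191 FPKM.

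Of the 7 members, 6 passed the test, 4 lower and 2 higher in MAPK13-inhibitor-treated cells, in a comparison in which 63.8% of all genes tested passed, 32.3% lower and 31.5% higher. With so many genes called, 6 of 7 does not set the members apart. None of the 7 also had an absolute log2 fold change over 1, which 23.4% of all genes tested did. The members' median log2 fold change was −0.27, beside 0.012 over all genes tested, and the median absolute change over all genes tested was 0.52. Scaling by library totals in place of TMM moved the median of all genes by 0.13 upward. Of the genes called, 41.1% were lower under library totals and 44.3% under upper-quartile scaling, beside 50.6% with TMM. The directions of the 6 called members held under library totals, RLE and upper-quartile scaling. The direction of Irf1 turned under library totals and upper-quartile scaling but not under RLE.

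Irf4, the antigen-receptor-induced member, had 22418 and 23756 counts in DMSO-treated cells and 18737 and 19641 in MAPK13-inhibitor-treated cells, or 869 and 874 against 528 and 580 CPM. Both inhibitor libraries lay below both DMSO libraries, with a wider gap between the inhibitor libraries than between the DMSO libraries. Irf4 fell by 0.65 on the log2 scale (SE 0.055, 1.57-fold lower, edgeR adjusted p = 3.45e-06), the largest change among the members, although 41.2% of all genes tested had a larger absolute log2 fold change. The replicate 1 pair moved the same way, from 287 FPKM with DMSO to 176 with inhibitor.

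Irf8, which is expressed in B cells and myeloid cells and is induced by interferon-gamma in macrophages, had 13807 and 13692 counts with DMSO and 14351 and 15399 with inhibitor. After scaling these were 535 and 503 against 404 and 454 CPM, so the groups did not overlap. Irf8 was lower with inhibitor in these libraries (log2 fold change −0.27 ± 0.064 SE, edgeR adjusted p = 0.00342), a call lost when libraries were scaled by their totals (−0.15, edgeR adjusted p = 0.0535, within a range of 1.37e-16 to 0.0535 over its alternatives). In the replicate 1 pair Irf8 went the other way, from 22.7 FPKM with DMSO to 45.9 with inhibitor.

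The Irf4 to Irf8 ratio within a library does not depend on how libraries are scaled, and it was examined after the values above had been seen. In counts it was 1.62 and 1.74 in DMSO-treated and 1.31 and 1.28 in MAPK13-inhibitor-treated cells. In FPKM it was 12.6 with DMSO and 3.83 with inhibitor. The ratio was lower with inhibitor in both sets of libraries, but Irf8 itself moved opposite ways in them. Irf8 was lower in the count libraries (−0.27) and higher in the replicate 1 pair (22.7 to 45.9 FPKM), while Irf4 was lower in both. Counts are not scaled to transcript length, so the level of the ratio cannot be compared between the sets. An exact permutation test of 2 against 2 count libraries cannot give a two-sided p under 0.333.

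Irf1, an interferon-gamma-induced activator, had 10335 and 11088 counts with DMSO and 13568 and 13102 with inhibitor, or 401 and 408 against 382 and 387 CPM. The scaled values did not overlap, with both inhibitor libraries slightly lower, but the difference missed the threshold (log2 fold change −0.072, 95% interval −0.18 to 0.038, edgeR adjusted p = 0.224), and it was positive under upper-quartile scaling (0.0083) and library totals (0.053). The replicate 1 pair read 128 FPKM with DMSO and 94.7 with inhibitor.

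Irf2, which competes with IRF1 for the same elements, had 2763 and 2914 counts with DMSO and 4586 and 4640 with inhibitor. Both DMSO libraries stood at 107 CPM and the inhibitor libraries at 129 and 137 CPM, so Irf2 was higher with inhibitor (log2 fold change 0.31 ± 0.060 SE, edgeR adjusted p = 0.00108). The replicate 1 pair moved the same way, from 25.9 to 33.8 FPKM. The Irf1 to Irf2 ratio, also examined after the values were seen, was 3.74 and 3.81 in counts with DMSO and 2.96 and 2.82 with inhibitor, and in FPKM it was 4.94 and 2.80.

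Irf3, the latent factor phosphorylated by TBK1, had 1706 and 1770 counts with DMSO and 1759 and 1739 with inhibitor, which became 66.2 and 65.1 against 49.6 and 51.3 CPM in the larger inhibitor libraries. Its raw counts were nearly level while its share of each library was lower in both inhibitor libraries (log2 fold change −0.38 ± 0.068 SE, edgeR adjusted p = 6.83e-04). Irf3 was instead higher with inhibitor in the replicate 1 pair, at 29.8 against 25.3 FPKM.

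Irf5, which acts downstream of MyD88 and is best known in B cells and myeloid cells, had 1822 and 1834 counts with DMSO and 2772 and 2686 with inhibitor, or 70.7 and 67.4 against 78.1 and 79.3 CPM. The groups did not overlap and the increase passed the test narrowly (log2 fold change 0.19 ± 0.065 SE, edgeR adjusted p = 0.0265). The call was lost with DESeq2 (log2 fold change 0.20, adjusted p = 0.0634) and without DMSO replicate 2 (0.21) or DMSO replicate 3 (0.15), with edgeR adjusted p of 0.129 and 0.304, and the adjusted p ranged from 0.00166 to 0.304 over the alternatives. With library totals the log2 fold change of Irf5 was larger, at 0.31. The replicate 1 pair showed a larger difference in the same direction, from 11.5 to 30.6 FPKM.

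Irf2bp2, the corepressor, had 5723 and 6365 counts with DMSO and 6031 and 6229 with inhibitor, or 222 and 234 against 170 and 184 CPM. Both inhibitor libraries were lower (log2 fold change −0.37 ± 0.061 SE, edgeR adjusted p = 4.06e-04), and the log2 fold change was −0.24 with library totals. The replicate 1 pair was almost level, at 26.6 FPKM with DMSO and 26.1 with inhibitor.

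**Figure D1:**
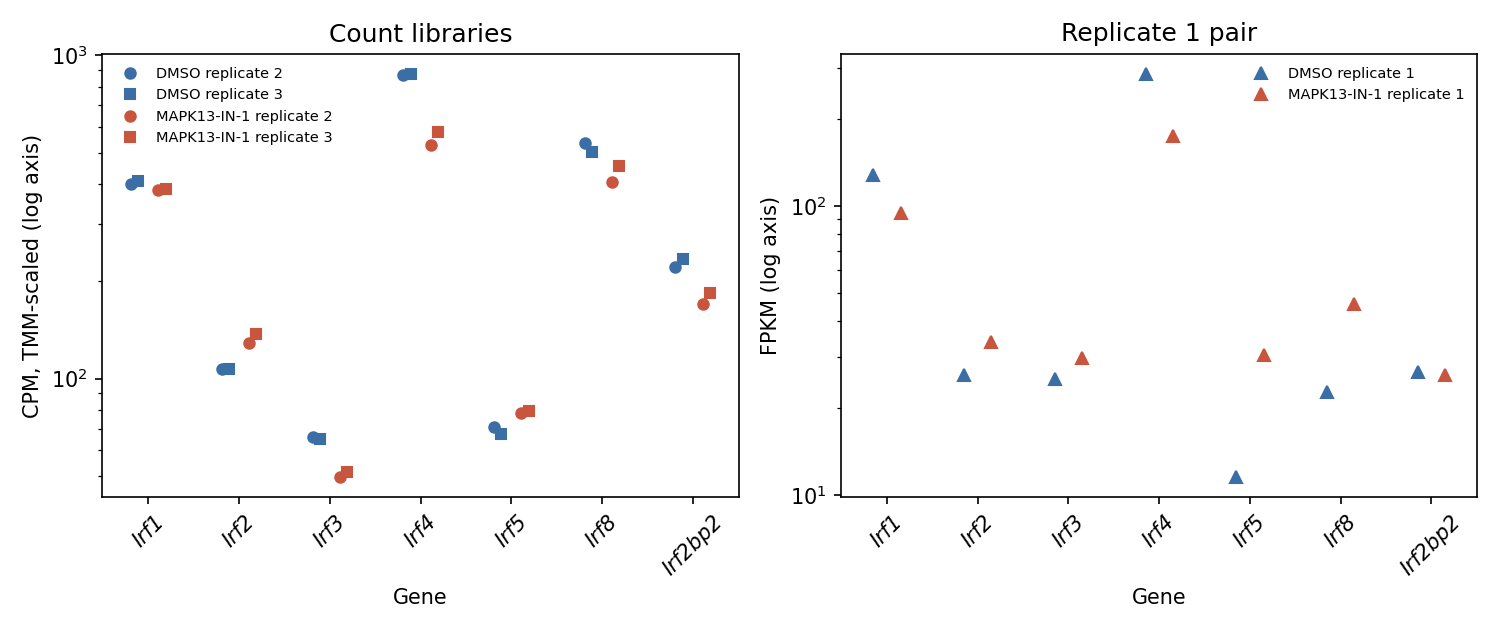
Level of each member in every library, on logarithmic axes, as TMM-scaled CPM in the count libraries (left, 2 libraries per group) and as FPKM in the replicate 1 pair (right, 1 library per group). For Irf4 both inhibitor libraries lie below both DMSO libraries, at 528 and 580 against 869 and 874 CPM, and the replicate 1 inhibitor library lies below its DMSO library too, while for Irf8 the replicate 1 pair (22.7 and 45.9 FPKM) is ordered the other way from the count libraries.

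Set side by side, 4 of the 6 called members had the same sign in the replicate 1 pair (Irf4, Irf2, Irf5 and Irf2bp2, of which Irf2bp2 turned positive, at 0.020, when values were divided by the library's sum) and 2 had the opposite sign (Irf3 and Irf8). At an absolute log2 ratio of (FPKM + 1) over 0.5, a limit chosen after the values were seen, 3 of 7 members differed in the replicate 1 pair, Irf5 and Irf8 higher and Irf4 lower, and 30.8% of the 11510 genes with at least 1 FPKM in either library did so. The log2 ratios were −0.70 for Irf4, 0.98 for Irf8 and 1.34 for Irf5. Over all genes at that FPKM minimum, 56.5% were higher with inhibitor, with a median log2 ratio of 0.079, and 64.9% of the 7824 called genes among them had the same sign in both sets of libraries, so 4 of 6 does not set the members apart. Library kit and replicate cannot be told apart here.

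**Figure D2:**
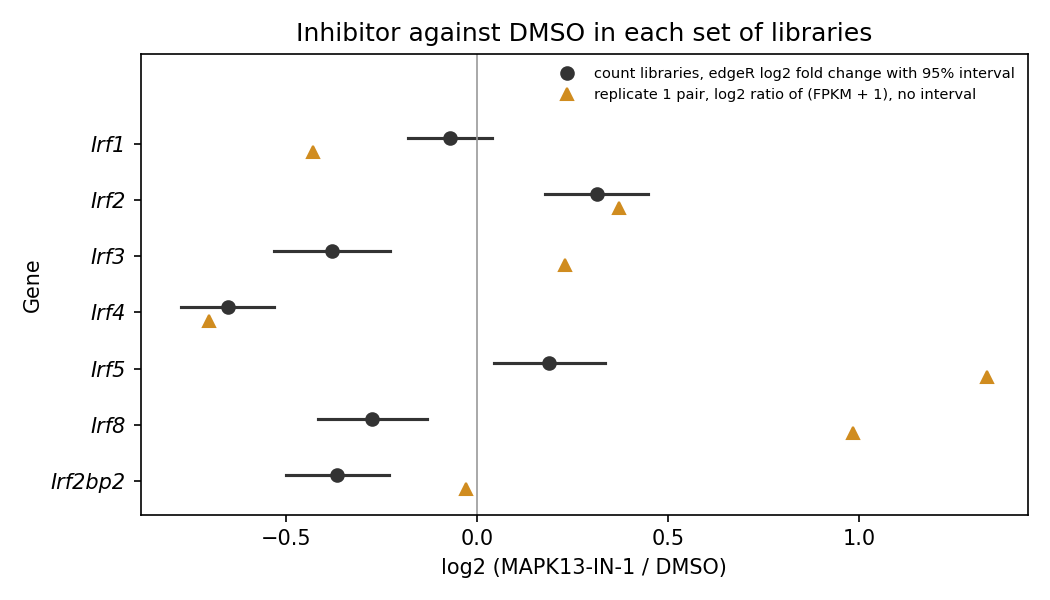
Difference of each member between MAPK13-inhibitor-treated and DMSO-treated cells, as the edgeR log2 fold change with its 95% interval in the count libraries (circles) and as the log2 ratio of (FPKM + 1) in the replicate 1 pair (triangles, no interval). Irf4 lies below 0 in both sets (−0.65 and −0.70), while Irf8 (−0.27 and 0.98) and Irf3 (−0.38 and 0.23) lie on opposite sides of 0. The Irf1 circle moves above 0 under upper-quartile scaling and library totals.

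Levels can be compared between genes only per length. Library-total CPM divided by the kilobases of merged GENCODE exons put the DMSO-treated means in the order Irf4 (170), Irf1 (97.3), Irf8 (70.5), Irf2bp2 (43.0), Irf5 (22.7), Irf3 (18.2) and Irf2 (13.9). With inhibitor the order was the same for the first 5 genes, and Irf2 (18.8) stood above Irf3 (15.3). On this scale Irf4 and Irf1 came closer together, at 118 and 101 with inhibitor. The FPKM order in the replicate 1 DMSO library also began with Irf4 and Irf1, and Irf2bp2 (26.6), Irf2 (25.9), Irf3 (25.3) and Irf8 (22.7) followed within a narrow range above Irf5 (11.5). Irf8 thus stood above Irf2bp2, Irf2 and Irf3 in the count libraries and below them in that library. In the replicate 1 inhibitor library the order was Irf4 (176), Irf1 (94.7), Irf8 (45.9), Irf2 (33.8), Irf5 (30.6), Irf3 (29.8) and Irf2bp2 (26.1), with Irf8 above the same 3 genes as in the count libraries.

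B cells and myeloid cells express Irf8 and Irf5, so the marker lists are given beside these members. According to the study's methods, splenic CD4+ T cells were taken with a mouse CD4 T-cell isolation kit, a step meant to remove such cells. Of 10 B-cell markers tested, 7 were higher and 1 lower with inhibitor, with a median log2 fold change of 0.39. Their summed level, as library-total CPM, was 1089 and 1059 with DMSO and 1408 and 1419 with inhibitor, with no marker at 0. Their sum in the replicate 1 pair was 49.0 FPKM with DMSO and 36.7 with inhibitor. Of 8 CD4 T-cell markers, 7 were lower with inhibitor and none higher, with a median log2 fold change of −1.23. Their summed level was 1696 and 1718 against 992 and 1110. In FPKM 5 of these 8 were lower and 3 higher with inhibitor in the replicate 1 pair. Of 8 macrophage and monocyte markers, 7 were tested and 5 were higher, with a sum of 13.2 and 11.9 against 44.5 and 37.0. In the replicate 1 pair 8 of 8 were higher, with a sum of 3.01 FPKM with DMSO and 9.76 with inhibitor. Of 7 dendritic-cell markers, 4 were tested and all 4 were higher, with a sum of 18.4 and 18.6 against 61.9 and 51.1. Cd209a was at 0 in the 4 count libraries. The replicate 1 sum of the dendritic-cell markers was 3.36 FPKM with DMSO and 14.6 with inhibitor. The part of these cell types in the differences of Irf4, Irf5 and Irf8 was not tested, and in bulk RNA fewer cells of a type and less RNA per cell cannot be told apart.

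Outside the 7 members, Irf7, the interferon-induced amplifier of type I interferon, had 147 and 172 counts with DMSO and 81 and 57 with inhibitor (log2 fold change −1.60 ± 0.21 SE, edgeR adjusted p = 7.66e-05). Irf9, the DNA-binding subunit of ISGF3, was higher (0.24, or 0.36 with library totals), a call lost without DMSO replicate 2 or DMSO replicate 3 (edgeR adjusted p of 0.0862 and 0.132, with a range of 3.16e-04 to 0.132 over the alternatives). Both Irf7 and Irf9 were higher with inhibitor in the replicate 1 pair. The paralogs of Irf2bp2 were both lower in the count libraries, Irf2bp1 by a log2 fold change of −0.89 and Irf2bpl by −0.52.

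Of 12 DNA-binding partners of IRF4 and IRF8, 6 were lower, 4 higher and 2 did not pass, with a median log2 fold change of −0.20. Of these 12 genes 9 were higher and 3 lower with inhibitor in the replicate 1 pair, with a median log2 ratio of 0.44. Batf3 had 664 and 710 counts with DMSO and 76 and 120 with inhibitor (log2 fold change −3.19), and Jund was also lower (−1.51), whereas Jun was higher (0.95). Nfatc2, an antigen-receptor-responsive factor, was lower (−1.08). Batf3 (26.6 and 35.9 FPKM) and Jund (89.9 and 99.3 FPKM) were higher with inhibitor in the replicate 1 pair.

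Upstream of Irf4, 6 of 9 genes of the route from the antigen receptor to NF-κB were lower, 2 were higher and 1 did not pass, with a median of −0.78. Relb (−1.46) and Nfkb2 (−1.19), of the alternative NF-κB pathway, were lower. With the replicate 1 libraries, 6 of the 9 genes were higher with inhibitor and 3 lower. Nfkb2 was among the higher there, at 152.6 FPKM with DMSO and 273.8 with inhibitor. Relb was nearly level, at 53.3 and 51.6 FPKM.

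Of the list of interferon ligands, receptors and JAK-STAT genes, which lie upstream of Irf1 and Irf8, 10 of 11 were tested, 3 were lower and 5 higher, and the median was 0.19. The kinase genes differed in direction, with Jak2 (−0.77) and Tyk2 (−0.65) lower and Jak1 (0.59) higher. In FPKM 6 of 11 genes were higher and 5 lower in the replicate 1 pair. Tyk2 was among the higher there, at 19.0 FPKM with DMSO and 35.1 with inhibitor. Ifng, picked out after its values were seen, was lower in the count libraries (−1.03). It was higher with inhibitor in the replicate 1 pair, at 92.6 against 16.4 FPKM. The list of sensors, adaptors and kinases upstream of IRF3, IRF5 and IRF7 had 17 genes tested, 6 lower and 6 higher, with a median of 0.072. Irak1 (−0.97) and Ikbke (−0.67) were lower, and Tbk1 (0.72) and Sting1 (0.46) were higher. Of these 17 genes 15 were higher with inhibitor and 2 lower in the replicate 1 pair, beside 56.5% higher among all genes at the FPKM minimum. Some of the 15 were under 1 FPKM in both libraries, such as Tlr3 and Tlr9, or nearly level, such as Mavs at 7.48 and 7.77 FPKM, genes picked out after their values were seen. Ikbke read 37.7 FPKM with DMSO and 84.3 with inhibitor. Of 7 regulators of IRF proteins, 3 were lower and 2 higher. Def6 (−1.45) and Swap70 (0.56), related genes whose products restrain IRF4 activity, went opposite ways in the count libraries, and Fkbp4 (−0.62) was lower, while 4 of the 7, Def6 and Swap70 among them, were higher and 3 lower in the replicate 1 pair.

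Of 15 genes known to depend on IRF1, 7 were lower, 4 higher and 4 did not pass, with a median of −0.13. Il12rb1 (−1.54), Socs1 (−1.38) and the immunoproteasome gene Psmb10 (−0.95) were lower, and Il15 was higher (2.87), from 31 and 41 counts with DMSO to 380 and 310 with inhibitor. Of the same 15 genes, 11 were higher with inhibitor and 4 lower in the replicate 1 pair, with a median log2 ratio of 0.14 beside 0.079 over all genes at the FPKM minimum. Of 15 genes known to depend on IRF4 in T cells, 10 were lower, 1 was higher and 4 did not pass. Of all genes tested, 32.3% were lower. The median of the 15 genes was −1.27, beside 0.012 over all genes tested and −1.23 over the 8 CD4 T-cell markers. Il4 had 240 and 229 counts with DMSO and 11 and 12 with inhibitor (log2 fold change −4.72), and Maf (−2.28), Ctla4 (−1.62) and Il2ra (−1.27) were lower. In the replicate 1 pair 11 of these 15 genes were higher with inhibitor and 4 lower, with a median log2 ratio of 0.41. The summed T-cell markers given above were lower with inhibitor in the same count libraries, and their part in these lists was not tested.

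The genes whose profile over the 4 count libraries lay nearest to each member were named by Euclidean distance between log2 CPM values centred on each gene's mean, among 8936 genes. For Irf4 these were Xpo5 and Rpsa (distances 0.013 and 0.019), and for Irf8 they were Khnyn and Akap11 (0.019 and 0.025). Irf1 lay nearest to Pa2g4 and Dus3l, Irf2 to Sec61g and Ube2v1, Irf3 to Cbx2 and Rbbp4, Irf5 to Katna1 and Rhoq, and Irf2bp2 to Kcnn4 and Pitrm1. Such likeness is common over 4 libraries, since 238 genes lay within a distance of 0.1 of Irf4 and 574 within that distance of Irf1. Of the genes nearest to Irf8, Khnyn read 30.6 FPKM with DMSO and 22.4 with inhibitor in the replicate 1 pair, and Akap11, like Irf8, was higher with inhibitor, at 7.24 and 10.5 FPKM.

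In GENCODE M21 on GRCm38, Irf4 lies at chr13:30749226-30766976 on the plus strand, Irf1 at chr11:53770014-53778374 on the plus strand, and Irf2, Irf8 and Irf2bp2 all lie on chromosome 8, at chr8:46739732-46847458, chr8:120736358-120756694 and chr8:126588296-126593986, with Irf2bp2 on the minus strand. Irf3 lies at chr7:44997648-45002848 and Irf5 at chr6:29526625-29541871, both on the plus strand. All members except Irf4 overlap another annotated gene. Irf8 lies wholly inside the span of Gm20388 on the same strand, so its reads could be split between the models whatever the use of strand. On the opposite strand, Irf3 overlaps Bcl2l12, Irf5 overlaps Tnpo3, Irf1 overlaps Gm17334, Irf2bp2 overlaps Gm26759, and Irf2 overlaps Gm45479, Gm31172 and Gm45481, and reads there cannot be assigned where strand was not used in counting.

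All 7 members matched a RefSeq promoter on GRCm38.p6, and the 250 bases before the most upstream start were searched on both strands. The GAS-type STAT element TTCNNNGAA was present in 3 of 7 members and in 7.14% of 27025 promoters, and the paired IRF core GAAANNGAA in 2 of 7 and in 7.16%. The NF-κB-type letters GGGANNTTC and the AP-1 letters TGANTCA were in none of the 7 windows, and in 3.19% and 6.85% of all promoters. The windows below show the matches of the interferon-responsive members Irf1 and Irf8, which differed in direction in the replicate 1 pair, and of Irf2 and Irf2bp2, with the matched letters in capitals. They lie at chr11:53769908-53769948 (Irf1), chr8:120736171-120736211 (Irf8), chr8:46739495-46739528 (Irf2) and, on the minus strand, chr8:126594103-126594143 (Irf2bp2).
Irf1, TTCNNNGAA: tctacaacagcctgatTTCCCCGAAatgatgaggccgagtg
Irf8, TTCNNNGAA: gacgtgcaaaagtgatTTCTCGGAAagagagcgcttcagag
Irf2, GAAANNGAA: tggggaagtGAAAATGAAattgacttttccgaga
Irf2bp2, GAAANNGAA: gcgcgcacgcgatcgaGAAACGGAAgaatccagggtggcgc
Irf8 held a further TTCNNNGAA match, and Irf2 held 1 as well. A match describes the letters in the window and is not evidence of binding.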

How the data were processed

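The authors deposited a gene count table for replicates 2 and 3 of each group, and separate tables for the replicate 1 pair, whose deposited values were read as FPKM from their range and decimals. The submitters' processing notes name fastp 0.21.0, HISAT2 2.1.0, StringTie 2.1.5 and DESeq2 1.30.1 for the count libraries, FastQC and HISAT2 for the replicate 1 pair, and the build mm10 or GRCm38. Counts were fitted in edgeR 4.0.16 under R 4.3.3 with TMM scaling, filterByExpr (minimum count 10), a quasi-likelihood test of 2 against 2 libraries and Benjamini-Hochberg adjustment over all genes tested. Standard errors were derived from the fold change and its F statistic. The procedure was tested on simulated data in which most genes were unchanged. In the real libraries 63.8% of genes tested were called, a setting that the simulation did not cover. Replicates differed by more than sampling noise (mean chi-square 2.94 for DMSO and 8.82 for inhibitor). FPKM were compared as log2 ratios with pseudocount 1. A count of 0 allows up to 3 counts, or 0.112 CPM in the smallest library, for counting error only. Named genes were the members, their family and paralogs, at most 4 genes with the smallest p per list, 2 nearest profiles per member with a mean of at least 10 CPM, Mapk13 and defining markers, and some of the genes so named are not reported here. Genes marked as picked out after their values were seen were named as well. The members and lists were chosen with earlier results of these data known. Alternatives were RLE, upper quartile and library totals, other filters, DESeq2 1.42.0, a replicate block, a fold threshold and leaving out each library. For the replicate 1 pair they were a pseudocount of 0.1 and division by the library's sum.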

Additional observations from a re-analysis of the deposited data

How the results depend on the processing

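Over the alternatives tried, 71 of 77 log2 fold changes of members kept their direction and side of the threshold. Irf1, not called, became positive with upper-quartile scaling (0.0083) and library totals (0.053). Irf8 was no longer called with library totals (−0.15), nor Irf5 with DESeq2 (0.20) or without a DMSO library (leave-one-out range 0.15 to 0.21). Requiring an absolute log2 fold change over 1 left 3799 genes and 0 members. Leaving out single libraries gave 8731 to 10943 genes and 5 to 6 members, the group left with 1 library being assumed to vary like the other. Among other named genes, Cd4 turned positive with RLE (0.013), upper quartile (0.080), library totals (0.12), at least 10 counts in every library (0.044), DESeq2 (0.0079) and without MAPK13-IN-1 replicate 2 (leave-one-out range −0.050 to 0.041). In the replicate 1 pair, the ratio of Irf2bp2 turned positive after division by the library's sum (0.020). The causes were not tested.

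The labels do not say that a shared replicate number pairs libraries, and over 16269 genes the deviations of same-numbered libraries from their group means had a correlation of −0.0064. With replicate number as a block, 10645 genes were called in place of 10374, and 6 members.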

Other observations

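Markers of other cell types outside the comparisons above are given as summed library-total CPM. Erythroid genes summed to 7.52 and 7.09 with DMSO and 94.0 and 66.7 with inhibitor, and 5 of 6 genes tested were higher. In the replicate 1 pair they summed to 0.928 and 1.93 FPKM. Of the plasma-cell markers, 4 were tested, 3 higher and 1 lower, with sums of 244 and 232 against 259 and 269. The replicate 1 sums were 61.5 FPKM with DMSO and 50.8 with inhibitor. Both CD8 T-cell markers were lower, with sums of 11.2 and 10.4 against 5.76 and 8.16, whereas both were higher with inhibitor in the replicate 1 pair, which summed to 3.49 and 8.39 FPKM. NK-cell markers summed to 3.20 and 3.79 against 5.26 and 4.63, and 1 of 2 tested was higher, with replicate 1 sums of 1.03 and 5.34 FPKM. Neutrophil markers stayed under 0.460 in each count library, and 0 of 5 passed the filter on low counts. Their replicate 1 sums were 0.695 and 0.336 FPKM.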
